A study of Caenorhabditis elegans with 4 samples.

Results

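HLH-30 peaks that lay close to one another were examined in late embryos of the nematode Caenorhabditis elegans. Of the 2236 peaks in the combined peak list, 426 had the centre of at least 1 other peak within 2000 bp on the same chromosome, which is 19.1% (95% Clopper-Pearson interval 17.4 to 20.7). The centre of a peak was its start plus its end, divided by 2 and rounded down. Peaks linked in this way formed 191 groups, and the remaining 1810 peaks stood alone by this rule. Peak positions in the combined list chose the members. Their number, spacing, strength and width in that list are therefore descriptions and were not tested.

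Chromatin bound by the tagged protein was immunoprecipitated and sequenced (ChIP-seq) in 2 anti-GFP ChIP samples beside 2 input samples, numbered 1 and 2. All 4 came from strain OP433, which carries wgIs433, a transgene with hlh-30::TY1 EGFP FLAG and a rescuing unc-119(+) copy, in an unc-119(ed3) background. Hermaphrodites were the labelled sex, the stage was late embryo and the worms were grown at 20 °C. Input DNA, 10% of the cleared lysate kept before immunoprecipitation, also came from this strain, so no group lacks the transgene. The transgene was introduced by bombardment, and the peaks report the tagged protein in whole embryos, in which different cell types are mixed. Whether both replicates came from separate cultures is not stated in the labels, so agreement between them may be technical.

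The transcription factor HLH-30, of the basic helix-loop-helix leucine zipper family, corresponds to TFEB of mammals. Proteins of this family bind DNA as dimers at E-box elements, and HLH-30 is known for control of autophagy, lysosome and fat metabolism genes and for roles in starvation and long life. The peak lists hold intervals and values only, in WormBase WS180 coordinates. No WS180 sequence or annotation was used here, so no sequence is printed and no gene is named beside a peak.

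For every peak a list gives both edges and 1 number, deposited under the name q-value. Every deposited value equalled the binomial tail of exactly 1 pair of whole numbers, read here as ChIP tags and scaled control tags. Enrichment is ChIP tags divided by control tags, and its interval is an exact binomial one that covers counting error only. The strength of a peak is −log10 of its deposited value. Replicate 1 listed 649 peaks and replicate 2 listed 1338. A combined peak was counted as held by a replicate where it overlapped a peak of that list by at least 1 bp. Over all 2236 combined peaks, 26.8% were held by both replicates, 28.6% by replicate 1, 57.5% by replicate 2 and 40.7% by neither. Library depth is unknown, so the absence of a peak from a list does not show that the site was free of HLH-30.

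Neighbouring centres inside a group were typically a little over 1 kb apart. Over the 235 neighbouring pairs within groups, the median distance was 1286 bp (quartiles 966.5 and 1615, range 478 to 1998). The empty stretch between their edges had a median of 738 bp, with quartiles of 465.5 and 1086 bp. No pair of edges in the combined list was closer than 201 bp, and the smallest gap was 210 bp in replicate 1 and 203 bp in replicate 2. Peaks with edges nearer than this were thus not listed separately. Only 1 pair of centres lay within 500 bp of each other, 63 lay over 500 to 1000 bp apart, 93 over 1000 to 1500 bp and 78 over 1500 to 2000 bp. Past the limit the counts went down gradually, with 57 pairs over 2000 to 2500 bp apart and 51 over 2500 to 3000 bp.

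**Figure D1:**
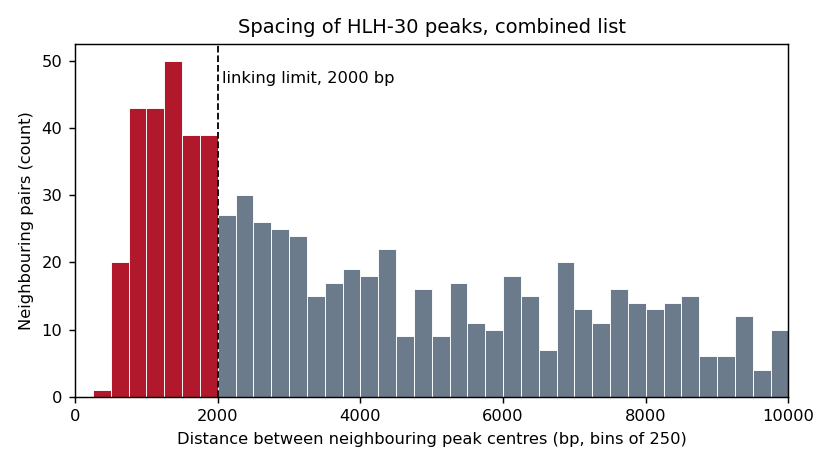
Histogram of the distance between the centres of neighbouring peaks in the combined list (x axis in bp, bins of 250) against the number of neighbouring pairs (y axis). Red bars are the pairs within the 2000 bp limit and grey bars those beyond it, drawn up to 10000 bp. Distances under 500 bp are nearly absent and the counts fall off slowly past the limit.

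The 3 closest pairs held 1 strong peak, on X, and otherwise weaker ones. On chromosome III, the peaks at 8741480 to 8741673 and 8741955 to 8742154 had centres 478 bp apart and were held by neither replicate, with enrichments of 4.57-fold and 3.50-fold. On X, the peaks at 14946620 to 14946998 and 14947224 to 14947497 were 551 bp apart, and both replicates held the first (4.93-fold, strength 18.9) but neither held the second (3.73-fold, strength 6.28). A pair on chromosome I, 555 bp apart, was held by neither replicate, at 3.26-fold and 3.25-fold.

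The limit of 2000 bp did not fall at a break in the distances. The pairs just inside it were 1984 and 1998 bp apart on chromosome II and 1992 bp apart on III. In each of these 3 pairs, both replicates held the first peak and neither held the second. The pairs just outside it were 2008 bp apart on chromosome I and 2040 and 2046 bp apart on III. The pair at 2008 bp, which the rule leaves out, joined 2 strong peaks that both replicates held, enriched 10.2-fold and 4.29-fold.

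Most groups were pairs. There were 154 groups of 2 peaks, 31 of 3, 5 of 4 and 1 of 5. A pair spanned a median of 1789 bp from outer edge to outer edge, a group of 3 spanned 3217 bp and a group of 4 spanned 4038 bp. Over the 191 groups, peaks covered a median of 52.5% of the span (range 20.4 to 91.8). Members covered 212168 bp, or 22.7% of all peak sequence, and held 22.0% of the ChIP tags of the list.

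The largest group lay on chromosome II at 10551791 to 10559992 and held 5 peaks over 8202 bp. Both replicates held every one of its peaks. From the first to the last, enrichment in the combined list was 5.64-fold (95% counting interval 4.22 to 7.65), 5.57-fold (3.13 to 10.7), 3.78-fold (2.54 to 5.77), 2.69-fold (1.69 to 4.40) and 6.85-fold (5.23 to 9.12). In replicate 1 the same peaks stood at 4.22, 4.29, 3.07, 3.36 and 7.16-fold, and in replicate 2 at 7.92, 6.43, 4.07, 3.50 and 10.85-fold. The last peak was the most enriched in both replicates, and replicate 2 was above replicate 1 at each of the 5. The combined tags of that last peak (418 ChIP against 61 control) cover 1686 bp, more than its partner in either replicate, as the map of the largest groups shows.

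Directly before this group on chromosome II lay a further pair, at 10546982 to 10549817, with an edge gap of 1973 bp between them and centres 3014 bp apart. Both replicates held both of its peaks too. The stretch from 10546982 to 10559992, 13011 bp long, thus held 7 peaks, and both replicates held all 7. The pair consisted of wide peaks of 1320 and 1179 bp, enriched 4.73-fold (3.58 to 6.32) and 7.07-fold (5.37 to 9.45). In replicate 1 these stood at 3.42-fold and 5.37-fold, and in replicate 2 at 6.26-fold and 9.06-fold, so the second was the more enriched in each.

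The 5 groups of 4 peaks differed widely in replicate support. In the group on chromosome V at 14847223 to 14850859, the first 3 peaks were nearly equal in the combined list, at 5.85, 5.58 and 5.63-fold, and both replicates held them. They reached 3.80, 4.22 and 3.77-fold in replicate 1 and 8.20, 6.89 and 7.0-fold in replicate 2. The last, at 3.85-fold, was held by replicate 2 alone, at 6.50-fold. In the group on chromosome IV at 2772153 to 2776389, replicate 2 held all 4 peaks and replicate 1 held the strongest, at 2.63-fold against 5.19-fold in replicate 2. On chromosome III at 13717420 to 13721457, replicate 2 held 3 of 4 and replicate 1 held 1.

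The other groups of 4 lay on chromosome II and had weaker support. At 6836380 to 6839273, replicate 2 held 2 peaks, replicate 1 held none, and combined enrichment ran from 2.48 to 4.60-fold. At 9261474 to 9265742, neither replicate held any of the 4 peaks, which were enriched 2.83, 2.46, 2.90 and 3.00-fold with 42 to 69 ChIP tags each.

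**Figure D2:**
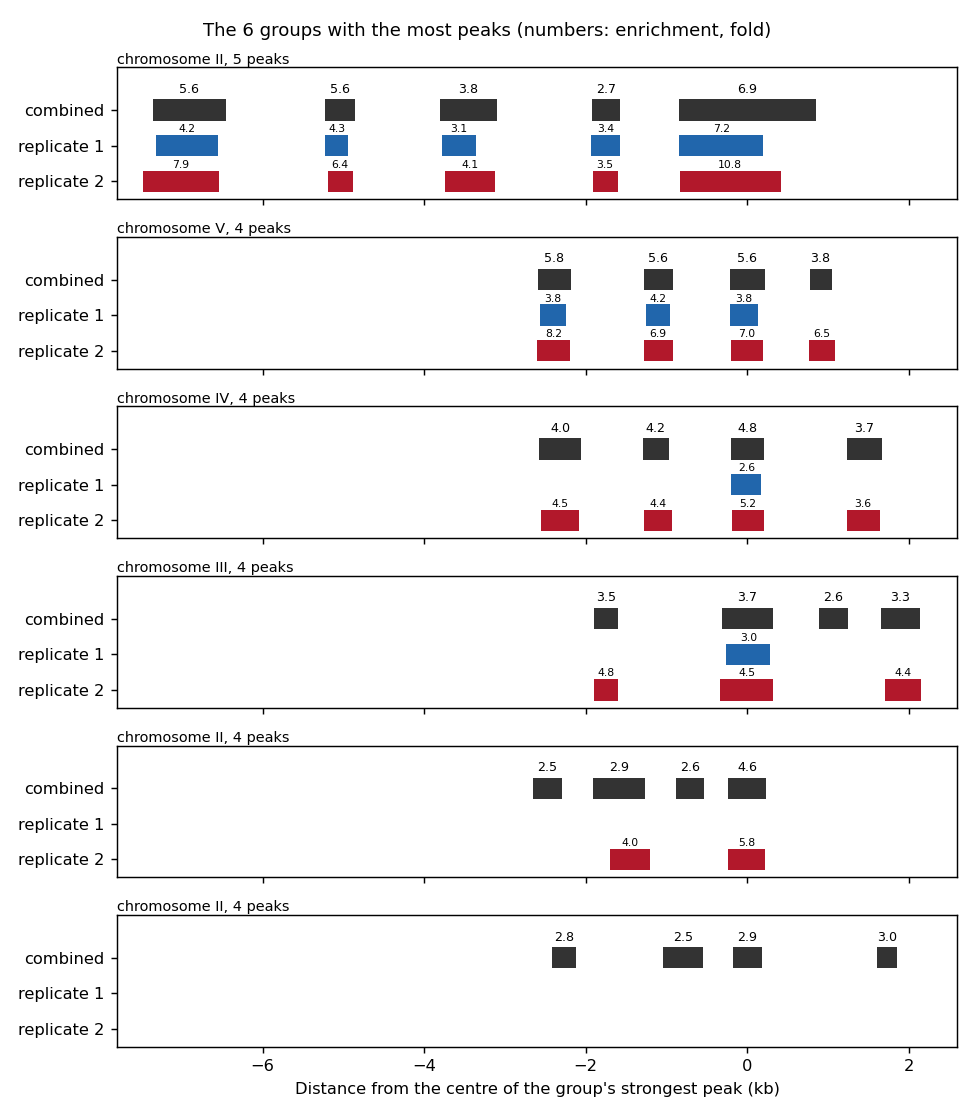
Maps of the 6 groups with the most peaks. Each panel is 1 group, the x axis is the distance in kb from the centre of its strongest peak, and bars drawn to scale are combined peaks (black) and their strongest overlapping peak in replicate 1 (blue) and replicate 2 (red), with enrichment in fold above each. All 5 peaks of the top panel recur in both replicates, and none of the 4 in the bottom panel recurs in either.

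In 20 of the 191 groups, or 10.5% (6.51 to 15.7), both replicates held every peak. The strongest of these lay on chromosome III at 4280337 to 4282563. Its second peak was enriched 12.5-fold (8.97 to 17.9) in the combined list, 7.90-fold in replicate 1 and 17.1-fold in replicate 2. Its first peak reached 4.21-fold (3.06 to 5.89), 3.40-fold and 5.95-fold. The 2 combined intervals do not overlap, and the order of the peaks was the same in each replicate.

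A pair on X at 13143996 to 13145579 was built alike. Its second peak reached 13.8-fold (9.58 to 20.6) in the combined list, 7.65-fold in replicate 1 and 19.9-fold in replicate 2. Its first peak reached 4.13-fold (2.89 to 6.02), 3.33-fold and 6.44-fold. A compact pair on chromosome III at 7272022 to 7273248 held the most enriched of all 426 grouped peaks. This 443 bp peak stood at 18.6-fold (11.3 to 33.0), with 298 ChIP tags against 16 control tags. It reached 16.1-fold in replicate 1 and 25.5-fold in replicate 2, while its neighbour reached 4.56-fold and 6.38-fold.

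The remaining pairs named by the rule were more even. On chromosome V at 10715182 to 10717650, wide peaks of 1023 and 1244 bp were separated by 202 bp and enriched 7.31-fold (5.22 to 10.5) and 3.04-fold (2.33 to 4.0). On III at 8799711 to 8802390, peaks of 1184 and 1129 bp stood at 5.53-fold (4.09 to 7.61) and 4.79-fold (3.70 to 6.28), with overlapping intervals. The first was the more enriched in replicate 1 (4.75 against 3.86-fold) and in replicate 2 (6.58 against 6.03-fold). On I at 3822565 to 3825013, the peaks reached 4.42-fold (3.19 to 6.26) and 6.16-fold (4.64 to 8.30).

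In other groups the strongest peak had a weaker neighbour that neither replicate listed. In 35 groups (18.3%, interval 13.1 to 24.6), both replicates held the strongest peak and neither held any other. The strongest such case was on chromosome IV, where the peak at 10935191 to 10936451 reached 6.43-fold (5.29 to 7.88) and its neighbour at 10936858 to 10937145 reached 2.54-fold (1.56 to 4.26). The first of these overlapped 2 peaks in each replicate list, the strongest at 4.86-fold in replicate 1 and 7.97-fold in replicate 2. On II, the peak at 8787205 to 8787725 reached 14.9-fold (10.1 to 22.9), 12.3-fold in replicate 1 and 21.0-fold in replicate 2. Its neighbour at 8785914 to 8786128, with 42 ChIP tags to 14 control tags, reached 3.00-fold (1.61 to 5.95). A pair on V at 6227274 to 6229834 combined 5.03-fold and 2.78-fold, and a pair on III at 6420800 to 6422348 combined 7.10-fold and 3.00-fold.

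The strongest peak of a group was held more often than the others, while the second and later places differed less. Of the 191 strongest peaks, both replicates held 108, or 56.5% (49.2 to 63.7). Of the 191 second peaks they held 35 (18.3%, 13.1 to 24.6), and of the 44 peaks placed after these 5 (11.4%, 3.79 to 24.6). Replicate 2 held 165 of the strongest (86.4%), 95 of the second (49.7%) and 23 of the later peaks (52.3%, 36.7 to 67.5), so its share did not fall after the second place. Replicate 1 held 111 (58.1%), 38 (19.9%) and 5 (11.4%). The place was set by the deposited value, and stronger peaks of this list were more often held, so the order follows in part from the choice. Median strength was 12.8 for the strongest peaks, 5.89 for the second and 5.01 for the rest. The control level per kb of peak was alike in the 3 places, with medians of 52.4, 53.5 and 54.7 tags.

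**Figure D3:**
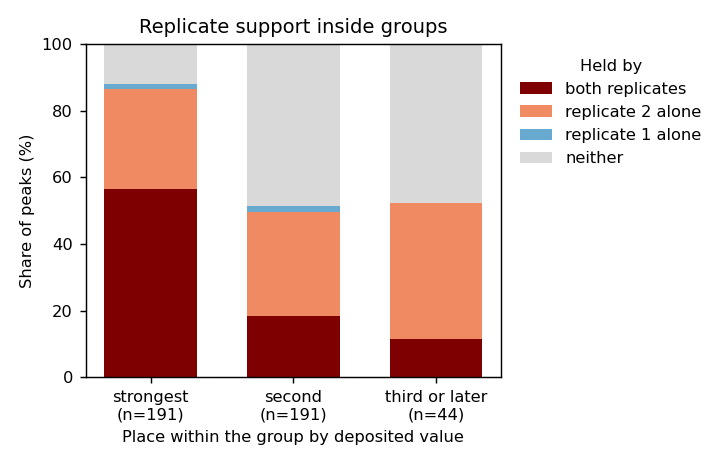
Stacked bars of the share of grouped peaks (y axis, %) held in both replicates, in only the replicate 2 list, in only the replicate 1 list and in none, for the strongest peak of each group, the second and the remaining ones (x axis). The share held by both goes from 56.5% to 18.3% and 11.4%, and the grey part held by neither is 12.0%, 48.7% and 47.7%.

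Within pairs the inequality was mostly moderate. The peak with the smaller deposited value held a median of 1.52 times the ChIP tags of its partner (quartiles 1.15 and 2.74, maximum 12.4) and 1.26 times its enrichment. Over the 154 pairs, Pearson's r between the left and the right peak was 0.12 for enrichment and 0.06 for strength, and Spearman's rho was 0.28 and 0.15. Both peaks of a pair share libraries and a stretch of chromosome, and these values are descriptions across pairs.

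Which peak of a group was the strongest could be compared between the replicate lists without the values of the combined list. The groups and the peaks compared were still set by the combined list, which is not shown to be independent of the replicates. In 31 groups, at least 2 peaks were held by both replicates through separate peaks. The strongest was the same peak in replicates 1 and 2 in 25 of these (80.6%, 62.5 to 92.5), and the most enriched was the same in 23 (74.2%, 55.4 to 88.1). Most of these groups (28) compared 2 peaks, and orders unrelated between the lists would match in 48.0% of the 31. In 42 further groups, replicate 1 held a single peak, which replicate 2 held too, and replicate 2 held at least 2. The peak in replicate 1 was the strongest of replicate 2 in 37 of these (88.1%, 74.4 to 96.0), where unrelated orders would match in 48.6%. Replicate 1 listed fewer peaks (649 against 1338), and the part of its listing limit in this match was not tested. The sources used here do not say whether the replicates were called against common control reads, and the part of such reads in this agreement was not tested.

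In each replicate list taken by itself, under 50% of the groups were counted as several separate peaks, though the interval for replicate 2 includes 50%. Here and for bridging, each combined peak was counted through its strongest overlapping peak in a replicate list only. By this count, replicate 2 held at least 2 separate peaks in 93 of the 191 groups (48.7%, 41.4 to 56.0). Replicate 1 did so in 34 (17.8%), and each of them in 31 (16.2%). Further overlaps were left out, at 3 of the 426 members in replicate 1 and 2 in replicate 2. Neither replicate held any peak in 19 groups (9.95%, 6.10 to 15.1). A single replicate 2 peak bridged neighbouring members in 1 of the 235 neighbouring pairs, and a replicate 1 peak did so in 0, which leaves room for up to 1.56% by the exact interval. The same linking rule applied to the replicate lists gave 37 groups with 81 peaks in replicate 1 (12.5% of its peaks) and 97 groups with 219 peaks in replicate 2 (16.4%). Of these, 31 of 37 and 85 of 97 had all their peaks within 1 group of the combined list.

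Of the 500 peaks with the smallest deposited values, 128 were grouped (25.6%, 21.8 to 29.7), where the share over all peaks was 19.1%. Of the first 100, 25 were grouped (25.0%, 16.9 to 34.7), and of the first 10, 4 (40.0%, 12.2 to 73.8), both with intervals that include 19.1%. The 4, named after their values were seen, were those at X 7951396 to 7952091, IV 2601909 to 2602839, IV 10935191 to 10936451 and III 349446 to 350521. Each was the strongest of a pair. At the X site the neighbour, 7952793 to 7953401, reached 4.0-fold (2.51 to 6.62) and was held by replicate 2 alone. The neighbours of the first site on IV (4.53-fold, 3.04 to 6.98) and of the site on III (4.08-fold, 2.19 to 8.15) were also held by replicate 2 alone.

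Grouped peaks were wider than the others, while the median enrichments of both sets lay close together. Median width was 405 bp for grouped peaks (order-statistic 95% interval 387 to 434) and 341 bp for the others (334 to 350). Median enrichment was 3.65-fold (3.48 to 3.82) and 3.69-fold (3.62 to 3.79), with overlapping intervals. Grouped peaks held a median of 80 ChIP tags against 23 control tags, and the others 67 against 19. ChIP tags per kb of peak had medians of 189 and 190, and control tags per kb 53.3 and 51.8. The added tags of grouped peaks thus went with added length and not with a higher tag density. These intervals treat peaks as independent, which neighbouring peaks are not.

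Grouped peaks were also the wider within each quartile of strength, most clearly among strong ones. In the weakest quartile of the deposited values, median width was 278 bp for grouped peaks (253 to 314) and 264.5 bp for the others (256 to 272). In the second quartile it was 332 bp (308 to 370) and 306 bp (298 to 316), and in the third 414.5 bp (381 to 448) and 363 bp (347 to 370). In the strongest quartile it was 593.5 bp (540 to 683) and 481 bp (464 to 504). The intervals overlapped in the 2 weaker quartiles and not in the 2 stronger ones. Quartiles matched strength only roughly. From the weakest quartile to the strongest, median strength of grouped peaks was 4.17, 5.48, 8.48 and 21.2. That of the others was 4.17, 5.53, 8.26 and 19.5. The part of this in the widths was not tested. Median enrichment of grouped peaks was the lower in each quartile, at 2.87 against 3.07, 3.00 against 3.30, 3.70 against 3.83 and 5.36 against 5.81-fold, with overlapping intervals in all 4. Strength and enrichment come from the same tags, and at equal strength a peak with more tags has the lower enrichment.

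**Figure D4:**
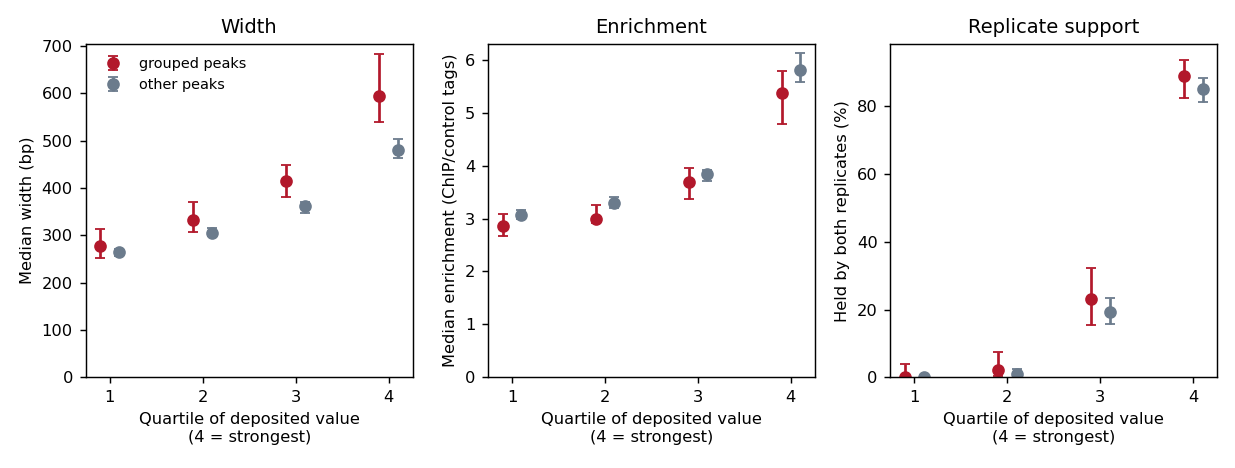
Median width (left, bp), median enrichment (middle, fold) and share held by both replicates (right, %) of grouped peaks (red) and other peaks (grey) in each quartile of the deposited value (x axis, 4 is the strongest). Bars are 95% order-statistic intervals of the medians and exact binomial intervals of the shares. In the strongest quartile grouped peaks are wider (593.5 against 481 bp), while the shares held by both, 89.0% and 85.1%, have overlapping intervals.

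The partners of grouped peaks in the replicate lists were wider as well. Among peaks held by both replicates, the partner in replicate 1 had a median width of 391 bp for grouped peaks (362 to 438) and 339 bp for the others (324 to 353). In replicate 2 the partner measured 497 bp (458 to 549) and 410 bp (393 to 431). Neither pair of intervals overlapped, but this comparison was not matched for strength. In the third quartile of the deposited value, partners measured 292 (266 to 335) and 272 bp (262 to 281) in replicate 1. In replicate 2 they measured 369 (330 to 417) and 334.5 bp (326 to 345). In the strongest quartile the widths were 412 (379 to 456) and 363 bp (344 to 383), then 523.5 (478 to 575) and 437 bp (420 to 455). Within quartiles, only the last of these comparisons had intervals apart. Among all peaks held by both, median enrichment of the replicate 1 partner was 4.29-fold for grouped peaks (4.0 to 4.50) and 4.70-fold for the others (4.48 to 4.94). In replicate 2 it was 6.35 and 6.41-fold. How the authors combined the replicates is not stated, so these widths are not shown to be independent of the combined list.

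Replicate 2 had the higher enrichment at grouped and other peaks alike. Where each replicate had a single partner, replicate 2 was above replicate 1 at 135 of 144 grouped peaks and at 409 of 443 others. Enrichment in replicate 2 was a median of 1.48 times that in replicate 1 for grouped peaks (1.42 to 1.55) and 1.40 times for the others (1.36 to 1.44), with intervals that overlapped. Over these peaks, Spearman's rho between the replicates was 0.80 in each set and Pearson's r was 0.91 for grouped peaks and 0.87 for the others. The same libraries enter each point.

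Grouped peaks were held by the replicates more often than the others, and most of this difference went with their strength and width. Both replicates held 148 of the 426 grouped peaks, or 34.7% (30.2 to 39.5), and 452 of the 1810 others, or 24.97% (23.0 to 27.0), a difference of 9.77 percentage points (4.80 to 14.9). All intervals of shares and differences treat peaks as independent, which neighbouring peaks are not, so the difference is a description. How the combined list was made is not stated, so being held is not shown to be independent of that list. With linking at 1000 bp the difference was -0.865 points (-8.60 to 8.02). Replicate 2 alone held 135 (31.7%) and 551 (30.4%), and replicate 1 alone 6 (1.41%) and 33 (1.82%). Neither held 137 grouped peaks (32.2%, 27.7 to 36.8) and 774 others (42.8%, 40.5 to 45.1). Grouped peaks were stronger, with a median of 7.73 (7.10 to 8.36) against 6.45 (6.23 to 6.68).

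Within quartiles of the deposited value the shares lay close together. Both replicates held 0 of 89 grouped peaks in the weakest quartile and 0 of 472 others. They held 2 of 93 (2.15%) and 5 of 466 (1.07%) in the second, and 25 of 108 (23.1%, 15.6 to 32.2) and 87 of 449 (19.4%, 15.8 to 23.3) in the third. In the strongest quartile they held 121 of 136 (89.0%, 82.5 to 93.7) and 360 of 423 (85.1%, 81.4 to 88.4). With the other peaks weighted to the quartiles of the grouped peaks, the share held by both among them was 32.3%, and the difference was 2.43 points. Weighting to quartiles of width gave 32.2% and 2.57 points. The parts of width and strength, which move together, were not told apart.

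Support and width did not rise steadily as the nearest peak came closer. Of the 123 peaks with a centre within 1000 bp, both replicates held 26.0% (18.5 to 34.7), near the share over all peaks. The share was 36.5% (29.2 to 44.2) of 170 peaks at over 1000 to 1500 bp and 40.6% (32.2 to 49.5) of 133 peaks at over 1500 to 2000 bp. It was 26.6% (20.5 to 33.4) at over 2000 to 3000 bp and 24.6% (22.0 to 27.3) of the 1061 peaks whose nearest centre lay over 10000 bp away. Median width followed a like course, at 359, 416.5 and 449 bp in the 3 classes within the limit, 389.5 bp in the next and 339 bp in the farthest. Median strength did too, at 6.48, 7.93 and 8.30 and then 6.73 and 6.54. The classes were chosen after the distances were seen. No pair of edges in the list lay closer than 201 bp, which limits how wide peaks with near centres can be. The part of this limit in the lower width, strength and support of the closest class was not tested.

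**Figure D5:**
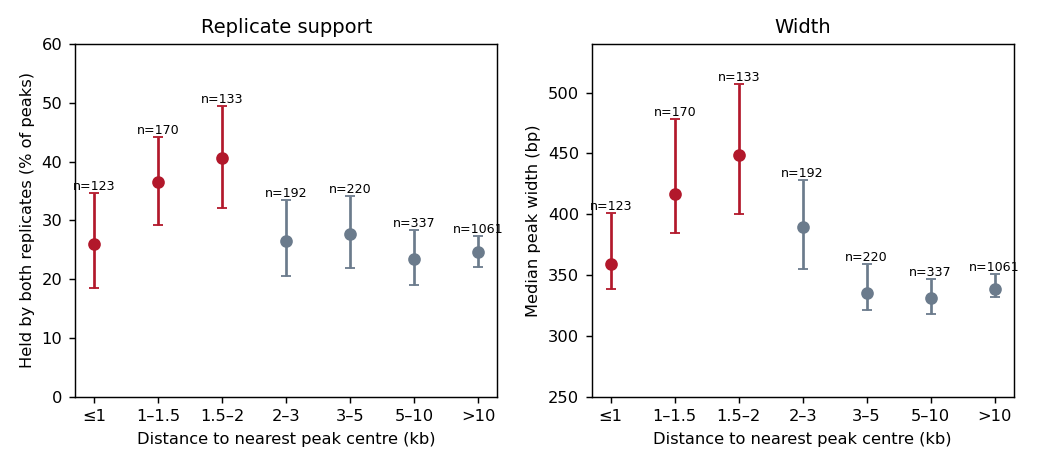
Share of peaks held by both replicates (left, %) and median peak width (right, bp) by the distance to the nearest peak centre in kb (x axis). Points carry 95% exact binomial intervals on the left and order-statistic intervals on the right, with the number of peaks above each. Red classes are grouped peaks and grey classes the others, and the width axis starts at 250 bp. Values are highest between 1 and 2 kb. The width of peaks with near centres is limited, since no pair of edges lay closer than 201 bp.

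Neighbouring pairs showed the same course in replicate 2. It held both peaks in 21 of 64 pairs within 1000 bp (32.8%, 21.6 to 45.7), 44 of 93 pairs at over 1000 to 1500 bp (47.3%, 36.9 to 57.9) and 40 of 78 pairs at over 1500 to 2000 bp (51.3%, 39.7 to 62.8). Replicate 1 held both peaks in 7, 13 and 15 of these pairs. The intervals of the classes overlapped in each replicate.

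Groups occurred on all 6 chromosomes and were most frequent on chromosome III, which held 55 of the 191. Of the 478 peaks on III, 122 were grouped, or 25.5% (21.7 to 29.7). The share was 20.3% (16.6 to 24.4) on II, 18.6% (14.6 to 23.1) on I, 16.5% (13.2 to 20.2) on X and 15.6% (12.1 to 19.6) on V. Chromosome IV, with few peaks, held 8 groups and 18 grouped peaks of 143 (12.6%, 7.63 to 19.2). The intervals of III did not overlap those of V, X or IV, and each share overlapped in its interval with the next in this order. A chromosome with more peaks per length gives more close pairs by placement alone, and that part was not tested. Each chromosome was cut into 3 equal lengths up to the end of its last listed peak. On the 5 autosomes, the middle length held 40.3% of the grouped peaks (35.1 to 45.6) and 40.0% of the others (37.4 to 42.6). Over all 6 chromosomes these shares were 40.8% (36.1 to 45.7) and 37.5% (35.3 to 39.8).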

How the data were processed

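Binding was measured by ChIP-seq in 2 anti-GFP ChIP samples, with 2 input samples whose files were not used here. Per the labels' protocols, worms were crosslinked with 2% formaldehyde and sonicated. Per the file headers, the 3 peak lists use WormBase WS180 and PeakSeq is the caller of all 4223 peaks. Not given in the sources used here are the aligner, the version and settings of PeakSeq and how the combined list was made. The authors deposited 1 value per peak, named a q-value. Each of the 1973 distinct deposited values matched exactly 1 pair of whole numbers through its lower binomial tail at a probability of 0.5 (relative tolerance 1e-09), among totals below 1500 or, for 3 values, up to 40000. The values were therefore read as uncorrected p-values, and no file names the tags. As the number of tags in a library is unknown, so is its depth.

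Peaks were linked where centres lay within 2000 bp on the same chromosome and joined by single linkage. Linking, overlap and tag recovery were tested on simulated lists. Shares carry exact Clopper-Pearson intervals, medians order-statistic intervals and the difference of shares a Newcombe-type interval, all at 95% and for counting error only. No p-value was computed, since peaks are not replicates and the 2 ChIP samples form 1 group. Groups named are the 6 with the most peaks, the 8 strongest with every peak held by both replicates, the 4 strongest in which both held only the strongest peak and neither held another, and the 3 pairs that were closest and nearest to the limit on each side. The members and lists were chosen with earlier results of these data known. Alternatives were linking at 1000 or 3000 bp or by edges, stricter overlap, each replicate list, the better-scoring 50%, chromosome IV left out, and weighting by strength or width. Python 3.11.15, numpy 2.4.6, scipy 1.17.1 and pandas 2.3.3 were used.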

Additional observations from a re-analysis of the deposited data

How the results depend on the processing

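The higher support of grouped peaks depended on the linking distance and on strength. With linking at 1000 bp the difference in the share held by both replicates turned from 9.77 to -0.865 percentage points. Linking at 1000 bp also limits how wide linked peaks can be, and that part was not tested. It was 2.43 in the better-scoring 50% of the list, 2.99 in the replicate 1 list, and 2.43, 2.57 and 1.12 with the other peaks weighted by value quartiles, width quartiles and value deciles, the last chosen after seeing the data. The difference stayed between 7.35 and 11.02 under the other alternatives run. The lowest of these, in the replicate 2 list, had an interval from -0.0886 to 14.8. Without 1 replicate at a time, the difference ran from 9.35 to 11.02 and the share of grouped peaks held from 36.2% to 66.4%, where 1 list has to hold a peak instead of 2.

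Counts follow from list length and linking distance by construction. Linking at 1000 bp gave 123 peaks in 59 groups, the better-scoring 50% gave 156 in 72, the replicate 1 list 81 in 37 and the replicate 2 list 219 in 97. In these 4 settings the share held was 26.0%, 55.1%, 96.3% and 51.1% (for a replicate list, held by the other replicate), and median width was 359, 487, 377 and 455 bp. Median enrichment was 4.40, 4.56 and 4.88-fold in the last 3. Median distance moved from 1286 to 871.5 bp with linking at 1000 bp, 1586 bp at 3000 bp, 1450 bp by edges and 1400.5 bp in the better-scoring 50%. No paired analysis was possible because no test was made and the ChIP samples form 1 group. Depth is unknown, so support in a replicate cannot be set against its reads.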
